A study of Mus musculus with 15 samples.

Results

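Genes of glycolysis and genes known to be induced by low oxygen were followed across 5 groups of mouse embryonic stem cells. The 39 genes comprised 37 named by symbol, plus Pkm and Ero1l, and all 39 were found among the 24819 genes of the deposited tables. They were 3 genes of glucose uptake and lactate export, 17 of glycolytic enzymes, 4 of glycolytic regulators, 3 of hypoxia-inducible factor (HIF) and oxygen sensing, and 12 other hypoxia-inducible genes. The group was chosen by differences from control cells seen in these same libraries, so such differences describe its genes here and are no independent evidence of their direction. The knockdown cells had been transfected with siRNA to deplete Rpl11, Rpl14, Rpl18 or Rpl23 (siRpl11, siRpl14, siRpl18, siRpl23), each encoding a protein of the large ribosomal subunit, and the control cells a non-targeting siRNA (siNT). All were E14 cells, a feeder-independent line here grown on gelatin in high-glucose medium with serum and leukemia inhibitory factor, and RNA was sequenced by a stranded poly(A) protocol. The titles give 48 h, while the treatment protocol gives harvest after 3 days. No genotype other than the shared line is given, and the siRNA sequences were not used here. Each group had 3 libraries: replicates 1 and 2 in one table, used for all tests (n = 2 per group), and one more, called the third library, in a separately normalized table, used for sign and size only.

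Glycolysis splits glucose into pyruvate in the cytosol and yields ATP without oxygen, and pluripotent stem cells are known for a high rate of it. HIF, a dimer of an oxygen-regulated alpha subunit and the stable ARNT subunit, is degraded in the presence of oxygen after prolyl hydroxylation by EGLN enzymes and recognition by VHL. When oxygen is low it binds short sites with the core letters ACGTG or GCGTG and activates genes for glucose transport, nearly every glycolytic step, angiogenesis and mitophagy. HIF activity is controlled mainly through the stability of the alpha protein, which these data do not measure.

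The cells matched their label. The summed level of 10 pluripotency markers was 5402 to 8354 FPKM over the 15 libraries. Of 8 feeder or fibroblast genes, summing to 4.95 to 19.7 FPKM, Dcn and Lum were at 0 in all libraries, Col1a1, Col1a2, Col3a1 and Postn were under 1 FPKM, and Thy1 and Fbn1 passed the filter. Each targeted gene was reduced in its own group, with 24.0% to 51.6% of siNT left in the first table and 19.9% to 38.5% left in the second, so residual target RNA differed between knockdowns. Since FPKM holds no totals, absolute depth is unknown, and depth set against siNT library 1 ran over 0.697 to 1.395 (in the second table, against its siNT library, 1.00 to 1.29). Replicates 1 and 2 correlated across genes with r of 0.996 to 0.998. Whether replicates came from separate cultures is not labelled, so the p-values reflect a spread among libraries that may be technical only.

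Short promoter stretches are shown for 5 members, chosen after their values were seen: Bnip3, Pfkp and Ldha, which were lower in every knockdown, and Hif1a and Pfkfb4, which were higher in at least 3. Each is the 250 bases before a RefSeq transcript start (GRCm38.p6), 5′ to 3′ on the gene's strand. Capitals mark ACGTG or GCGTG on either strand (CACGT and CACGC are their reverse complements), and CACGTG, an E-box that other factors also bind, holds ACGTG on both strands.
Bnip3, chr7:138909507-138909756, minus strand: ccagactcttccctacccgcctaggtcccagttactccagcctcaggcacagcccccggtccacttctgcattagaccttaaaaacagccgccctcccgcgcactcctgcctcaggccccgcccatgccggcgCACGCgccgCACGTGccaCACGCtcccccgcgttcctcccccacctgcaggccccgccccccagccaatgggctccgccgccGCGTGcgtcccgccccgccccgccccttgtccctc
Pfkp, chr13:6648772-6649021, minus strand: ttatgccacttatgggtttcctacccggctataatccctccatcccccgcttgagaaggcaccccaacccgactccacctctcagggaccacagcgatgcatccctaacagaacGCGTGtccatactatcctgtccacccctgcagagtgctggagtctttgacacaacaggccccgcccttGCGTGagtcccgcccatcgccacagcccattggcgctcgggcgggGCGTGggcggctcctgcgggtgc
Ldha, chr7:46845554-46845803, plus strand: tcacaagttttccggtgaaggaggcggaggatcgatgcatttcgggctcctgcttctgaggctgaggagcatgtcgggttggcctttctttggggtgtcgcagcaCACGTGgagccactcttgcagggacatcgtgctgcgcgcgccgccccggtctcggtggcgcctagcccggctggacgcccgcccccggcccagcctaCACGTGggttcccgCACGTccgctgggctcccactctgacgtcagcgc
Pfkfb4, chr9:108991652-108991901, plus strand: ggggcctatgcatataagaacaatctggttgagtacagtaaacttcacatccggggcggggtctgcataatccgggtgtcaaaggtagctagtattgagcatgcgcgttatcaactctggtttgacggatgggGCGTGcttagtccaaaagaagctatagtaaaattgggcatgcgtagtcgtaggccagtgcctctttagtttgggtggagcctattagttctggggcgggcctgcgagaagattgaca
Hif1a, chr12:73907617-73907866, plus strand: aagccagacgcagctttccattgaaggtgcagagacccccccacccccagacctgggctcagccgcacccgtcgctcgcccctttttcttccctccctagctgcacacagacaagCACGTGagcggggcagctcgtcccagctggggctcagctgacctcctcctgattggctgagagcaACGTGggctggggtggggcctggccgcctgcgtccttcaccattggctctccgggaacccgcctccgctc
Bnip3 had 5 matches in this window, 2 of them on the strands of 1 E-box, while Pfkp had 3, Ldha 5 (2 E-boxes), Pfkfb4 1 and Hif1a 3. Ldha has another listed start, not shown, whose window had 1 match and no E-box. A promoter was listed for 36 of the 39 members (Ero1l under Ero1a), not for Slc2a3, Bnip3l or Ndrg1. In the 250 bases before a start, 34 of 36 members (94.4%) had ACGTG or GCGTG on either strand, against 62.6% of the 9592 tested genes with a listed promoter and 41.5% of 27025 genes in all. The members without a match were Gpi1 and Tpi1, which both fell in every knockdown. A gene with several starts counted once if any window matched. Many of these genes are textbook HIF targets. A match describes the sequence and is not evidence of binding, and no match says only that these letters are not in this window.

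Nearly all members were lower after each knockdown. By limma on log2(FPKM + 1) with Benjamini-Hochberg adjustment over 12249 genes (adjusted p under 0.05), 33 of 38 tested members fell and 2 rose in siRpl11, where 43.6% of all tested genes fell and 27.3% rose. In siRpl14 33 fell and 2 rose (29.5% and 33.3% of all genes), in siRpl18 33 fell and 2 rose (34.7% and 32.8%), and in siRpl23 35 fell and 2 rose (30.8% and 34.9%). The median difference of members was -0.77 in siRpl11, -0.52 in siRpl14, -0.66 in siRpl18 and -0.65 in siRpl23, against -0.11, 0.02, -0.02 and 0.02 over all tested genes. A fall of 2-fold or more was found for 12, 6, 10 and 10 members in the same order, against 5.31%, 1.59%, 2.51% and 2.05% of all genes. Of the 38, 31 fell in all 4 knockdowns (22.7% of all genes) and 1, Hif1a, rose in all 4 (17.2%). The 4 comparisons share their siNT libraries, so this count is no independent repeat. Since these are bulk samples, fewer cells of a type and less RNA per cell cannot be told apart.

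Cell type markers moved along with the members. The 10 pluripotency markers summed to 6640 to 7237 FPKM in siRpl11, 5402 to 6480 in siRpl14, 5536 to 6340 in siRpl18 and 5449 to 6488 in siRpl23, against 7283 to 8354 in siNT, with no overlap. The gap was narrow for siRpl11 in the second table, at 7237 against 7283 FPKM in siNT. Of the 10 markers, 6, 8, 8 and 8 were called lower in the 4 knockdowns and 3, 1, 1 and 1 higher, with Sox2 higher in each. Of all tested genes, 43.6%, 29.5%, 34.7% and 30.8% were called lower and 27.3%, 33.3%, 32.8% and 34.9% higher. The 8 feeder or fibroblast genes summed to 4.95 to 7.59 FPKM in siRpl11, 9.71 to 12.1 in siRpl14, 8.90 to 12.4 in siRpl18 and 10.3 to 12.1 in siRpl23, against 15.7 to 19.7 in siNT. Thy1, which made up most of this sum, was called lower in each knockdown, while Fbn1, at 0.899 to 1.67 FPKM in knockdown libraries and 0.608 to 0.737 in siNT, was called higher in each. Sums of 5 neuroectoderm markers were lower in every knockdown library (38.6 to 67.1 FPKM, against 73.8 to 106 in siNT). Of the 4 that were tested, however, 1 was called lower and 1 higher in each knockdown (higher: Pax6 in siRpl11, Nes in the others). Sums of 7 primitive endoderm markers (3.48 to 8.74, against 2.65 to 3.58 in siNT) and 5 mesoderm markers (1.99 to 6.98, against 0.590 to 1.11 in siNT) were higher within each table. Of the 4 primitive endoderm markers tested, 3, 3, 4 and 4 were called higher and 0 lower. In the third siRpl23 library, however, 2 of these were below siNT. Wnt3 was the only mesoderm marker that passed the filter, and it was called higher in each knockdown. The part of these markers in the members' differences was not tested.

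**Figure D1:**
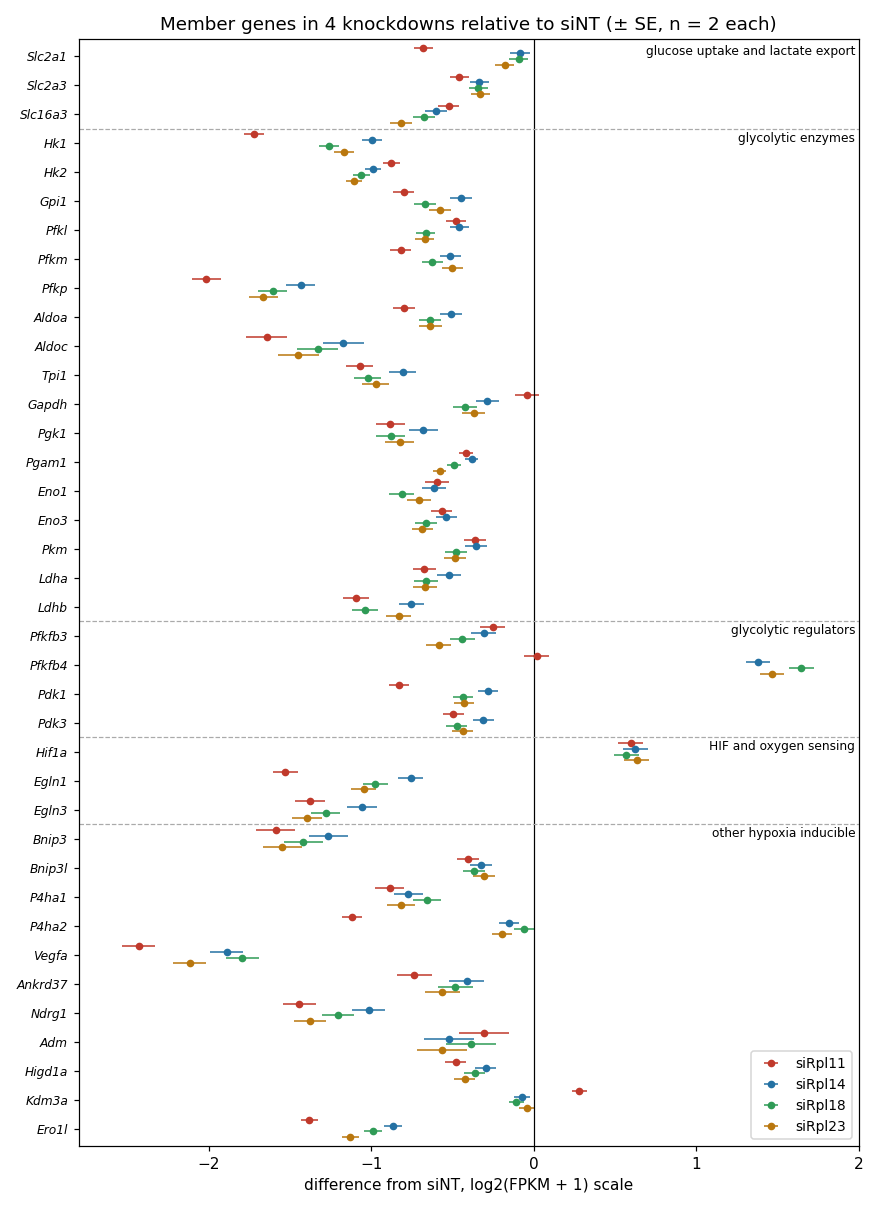
Difference of each of 38 member genes from siNT on the log2(FPKM + 1) scale in siRpl11, siRpl14, siRpl18 and siRpl23 (points, estimate; bars, SE; n = 2 per group), in 5 functional classes divided by dashed lines. Points lie left of 0 apart from Hif1a in every knockdown, Pfkfb4 at 1.38 to 1.65 in siRpl14, siRpl18 and siRpl23 and at 0.02 in siRpl11, and Kdm3a at 0.28 in siRpl11.

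The member left out of the tests was Car9, a carbonic anhydrase of the cell surface strongly induced by hypoxia in many tumours, which was at 0.13 to 0.57 FPKM in the first table and thus under the filter of 1 FPKM in 2 libraries. Of the 38 tested, 37 were at 1 FPKM or more in all 10 libraries. The exception was Adm, which encodes the vasodilator peptide adrenomedullin, at 0.901 and 1.25 FPKM in siRpl11 and 1.60 and 1.505 in siNT. On the FPKM scale, which is per length, levels of members in siNT ran over a wide range. Gapdh had the highest level (3069 FPKM, rank 12 of all genes), followed by Pkm (2555), Ldha (2164), Eno1 (1946) and Aldoa (1512), while Pfkfb4 (1.45) and Car9 (0.41) had the lowest.

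Glucose enters cells through Slc2a1 (GLUT1) and Slc2a3 (GLUT3), and lactate leaves through Slc16a3 (MCT4). Slc2a3, the more abundant transporter, was at 532 and 568 FPKM in siRpl11, 578 and 620.5 in siRpl14, 572 and 622 in siRpl18 and 588 and 614 in siRpl23, against 762 and 751 in siNT. All knockdown libraries were below both siNT libraries, with differences of -0.46 ± 0.06 in siRpl11, -0.34 ± 0.06 in siRpl14, -0.34 ± 0.06 in siRpl18 and -0.33 ± 0.06 in siRpl23 (log2, ± SE). Slc2a1 was at 322 and 342 FPKM in siRpl11, 499 and 502 in siRpl14, 480.0 and 517 in siRpl18 and 452 and 486 in siRpl23, against 554 and 509 in siNT. The siRpl11 libraries lay well below all others (-0.68 ± 0.06). In siRpl14 (-0.09 ± 0.06) and siRpl18 (-0.09 ± 0.06) it was not called, and 1 siRpl18 library was above 1 siNT library. In siRpl23 it fell slightly (-0.18 ± 0.06). Slc2a1 was below siNT in the third library of siRpl11 (-0.81), siRpl14 (-0.31), siRpl18 (-0.30) and siRpl23 (-0.26). Slc16a3 was at 94.5 and 98.5 FPKM in siRpl11, 89.6 and 93.5 in siRpl14, 82.0 and 92.1 in siRpl18 and 73.8 and 83.6 in siRpl23, against 139.5 and 139 in siNT, with no overlap and differences of -0.52 ± 0.07 in siRpl11, -0.60 ± 0.07 in siRpl14, -0.67 ± 0.07 in siRpl18 and -0.82 ± 0.07 in siRpl23.

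Of 17 genes of glycolytic enzymes, 16 fell in siRpl11 and 17 in each of siRpl14, siRpl18 and siRpl23. The gene not called in siRpl11 was Gapdh. Of all tested genes, 43.6% fell in siRpl11, 29.5% in siRpl14, 34.7% in siRpl18 and 30.8% in siRpl23. Class medians were -0.80 in siRpl11, -0.54 in siRpl14, -0.67 in siRpl18 and -0.69 in siRpl23. The 17 genes summed to 1.70% to 2.12% of all FPKM in the 3 siRpl11 libraries, 1.83% to 2.13% in siRpl14, 1.63% to 2.10% in siRpl18 and 1.65% to 2.00% in siRpl23, against 2.56% to 3.04% in siNT, with no overlap.

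The first step, phosphorylation of glucose, is carried out by hexokinases. Hk1, the broadly expressed form, was at 6.64 and 6.44 FPKM in siRpl11, 11.5 and 11.4 in siRpl14, 9.06 and 9.70 in siRpl18 and 9.70 and 10.4 in siRpl23, against 24.8 and 22.8 in siNT. Its differences were -1.72 ± 0.06 in siRpl11, -0.99 ± 0.06 in siRpl14, -1.26 ± 0.06 in siRpl18 and -1.17 ± 0.06 in siRpl23, and siRpl11 had the lowest libraries. Hk2, a form induced by hypoxia and insulin, was at 25.5 and 25.4 FPKM in siRpl11, 23.1 and 23.7 in siRpl14, 22.5 and 22.0 in siRpl18 and 21.4 and 21.7 in siRpl23, against 49.9 and 45.3 in siNT. No knockdown library reached a siNT library (-0.88 ± 0.05 in siRpl11, -0.99 ± 0.05 in siRpl14, -1.06 ± 0.05 in siRpl18 and -1.10 ± 0.05 in siRpl23), and its lowest levels in the first table were in siRpl23. In the first table Hk1 made up 20.3% to 20.7% of the sum of both in siRpl11, 32.5% to 33.2% in siRpl14, 28.7% to 30.6% in siRpl18 and 31.2% to 32.3% in siRpl23, all below the 33.3% to 33.5% in siNT. In the third libraries it was below siNT in siRpl11 (28.7%) and siRpl18 (41.4%) and above it in siRpl14 (48.4%) and siRpl23 (45.3%), with 42.8% in siNT. Gpi1, which isomerizes glucose 6-phosphate, had differences between -0.80 and -0.45.

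Phosphofructokinase, the committed step, has platelet (Pfkp), liver (Pfkl) and muscle (Pfkm) forms. Pfkp was at 47.4 and 53.1 FPKM in siRpl11, 71.0 and 80.7 in siRpl14, 63.1 and 71.0 in siRpl18 and 59.6 and 69.5 in siRpl23, against 206 and 206 in siNT. The third libraries held 45.4, 59.8, 56.6 and 55.7 FPKM in the 4 knockdowns, against 181 in siNT. No knockdown library came near a siNT library, and the differences were -2.02 ± 0.09 in siRpl11, -1.43 ± 0.09 in siRpl14, -1.61 ± 0.09 in siRpl18 and -1.66 ± 0.09 in siRpl23. Pfkl (-0.67 to -0.46) and Pfkm (-0.82 to -0.50) fell less. Pfkp made up 25.7% to 31.5% of the summed FPKM of the 3 genes in siRpl11, 30.8% to 40.3% in siRpl14, 31.7% to 39.8% in siRpl18 and 30.9% to 38.8% in siRpl23, against 47.9% to 56.3% in siNT. Pfkl was the largest part in every knockdown library and, at 48.3% against 47.9% for Pfkp, in the third siNT library; its share was 52.9% to 68.9% in knockdown libraries, against 38.7% to 48.3% in siNT. In every group, siNT included, the third library had the highest Pfkl share.

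**Figure D2:**
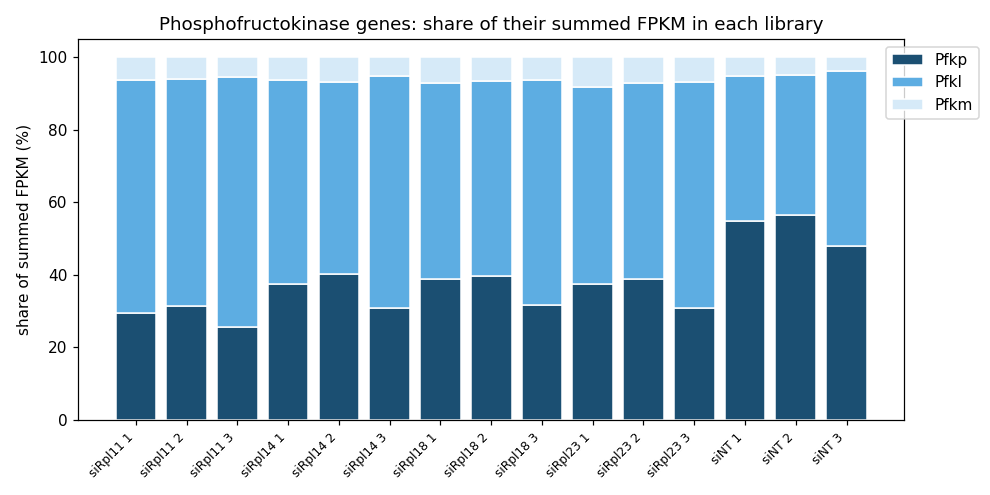
Share of Pfkp, Pfkl and Pfkm in their summed FPKM (%) in each of 15 libraries, with libraries 1 and 2 from the first table and 3 from the second. Pfkp holds 25.7% to 40.3% in the 12 knockdown libraries and 47.9% to 56.3% in the 3 siNT libraries.

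Among aldolases, which cleave fructose 1,6-bisphosphate, Aldoc was at 4.34 and 5.37 FPKM in siRpl11, 6.89 and 7.29 in siRpl14, 5.60 and 6.97 in siRpl18 and 5.00 and 6.42 in siRpl23, against 18.2 and 16.3 in siNT, differences of -1.64 ± 0.13 in siRpl11, -1.17 ± 0.13 in siRpl14, -1.33 ± 0.13 in siRpl18 and -1.45 ± 0.13 in siRpl23. Aldoa, at far higher levels, fell less (-0.80 to -0.51). Tpi1, which interconverts the triose phosphates, had differences of -1.07 ± 0.08 in siRpl11, -0.81 ± 0.08 in siRpl14, -1.02 ± 0.08 in siRpl18 and -0.97 ± 0.08 in siRpl23. Gapdh, the glyceraldehyde 3-phosphate dehydrogenase often used as a reference transcript, was at 2882 and 3084 FPKM in siRpl11, 2428 and 2613 in siRpl14, 2171 and 2413 in siRpl18 and 2331 and 2419 in siRpl23, against 3014 and 3123 in siNT. It was not called in siRpl11 (-0.04 ± 0.07) and was lower in the other 3 (-0.28 ± 0.07, -0.42 ± 0.07 and -0.37 ± 0.07).

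Pgk1, whose enzyme makes the first ATP of the pathway, was at 456 and 507 FPKM in siRpl11, 521 and 590.3 in siRpl14, 453 and 513 in siRpl18 and 469 and 534 in siRpl23, against 867 and 910.5 in siNT. No knockdown library reached a siNT library (-0.88 ± 0.09 in siRpl11, -0.68 ± 0.09 in siRpl14, -0.88 ± 0.09 in siRpl18 and -0.83 ± 0.09 in siRpl23). Pgam1 (-0.58 to -0.38), Eno1 (-0.81 to -0.60) and the muscle enolase Eno3 (-0.69 to -0.54), of the next steps, fell in each knockdown. Pkm, the pyruvate kinase gene, was at 1924 and 2049 FPKM in siRpl11, 1949 and 2052 in siRpl14, 1759.8 and 1916 in siRpl18 and 1758 and 1897 in siRpl23, against 2505 and 2605 in siNT, with smaller differences of -0.36 ± 0.07 in siRpl11, -0.35 ± 0.07 in siRpl14, -0.48 ± 0.07 in siRpl18 and -0.48 ± 0.07 in siRpl23. The tables hold 1 value per gene, so its M1 and M2 isoforms were not separated.

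Lactate dehydrogenase is built from Ldha, the form that favours lactate, and Ldhb. Ldha was at 1306 and 1410.4 FPKM in siRpl11, 1460.4 and 1558 in siRpl14, 1304 and 1432 in siRpl18 and 1298 and 1429.6 in siRpl23, against 2100.1 and 2229 in siNT. Its differences were -0.67 ± 0.07 in siRpl11, -0.52 ± 0.07 in siRpl14, -0.66 ± 0.07 in siRpl18 and -0.67 ± 0.07 in siRpl23. Ldhb was at 105 and 117 FPKM in siRpl11, 132 and 149 in siRpl14, 108 and 122 in siRpl18 and 127 and 139 in siRpl23, against 235 and 239 in siNT (-1.09 ± 0.08 in siRpl11, -0.75 ± 0.08 in siRpl14, -1.04 ± 0.08 in siRpl18 and -0.83 ± 0.08 in siRpl23). The Ldhb share of their sum was 7.41% to 8.92% in the knockdown libraries of the first table, against 9.67% and 10.1% in siNT, with no overlap. In the third libraries it was below siNT in siRpl11 (10.3%) and siRpl18 (10.56%) and above it in siRpl14 (11.6%) and siRpl23 (12.5%), with 10.6% in siNT. Gapdh, Ldha, Tpi1, Eno1 and Pgam1 have processed pseudogenes in the mouse genome, and how reads shared with them were assigned was not stated in the sources used here.

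The 4 regulators did not move as one. Pfkfb4, one of the bifunctional enzymes that set fructose 2,6-bisphosphate, the activator of phosphofructokinase, was at 1.34 and 1.62 FPKM in siRpl11, 5.43 and 5.34 in siRpl14, 6.55 and 6.81 in siRpl18 and 5.81 and 5.75 in siRpl23, against 1.42 and 1.48 in siNT. The third libraries held 0.950, 4.65, 4.49 and 4.58 FPKM in the 4 knockdowns, against 0.577 in siNT. All libraries of siRpl14, siRpl18 and siRpl23 were above siNT (1.38 ± 0.07, 1.65 ± 0.07 and 1.47 ± 0.07), while siRpl11 was not called (0.02 ± 0.07). At these low levels the log2(FPKM + 1) scale understates the fold: mean FPKM in the 3 groups was 372%, 461% and 399% of siNT. Its relative Pfkfb3 fell in each knockdown (-0.25 ± 0.08 in siRpl11, -0.31 ± 0.08 in siRpl14, -0.44 ± 0.08 in siRpl18 and -0.58 ± 0.08 in siRpl23).

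Pyruvate dehydrogenase kinases inhibit pyruvate dehydrogenase in the mitochondrion. Pdk1, the HIF-induced form, was at 30.4 and 32.4 FPKM in siRpl11, 44.4 and 48.3 in siRpl14, 40.4 and 42.7 in siRpl18 and 39.4 and 44.0 in siRpl23, against 55.7 and 57.2 in siNT. Its siRpl11 libraries were the lowest (-0.83 ± 0.06 in siRpl11, -0.28 ± 0.06 in siRpl14, -0.43 ± 0.06 in siRpl18 and -0.43 ± 0.06 in siRpl23). Pdk3 was at 14.5 and 14.2 FPKM in siRpl11, 15.5 and 17.4 in siRpl14, 15.2 and 13.9 in siRpl18 and 15.3 and 14.6 in siRpl23, against 20.4 and 20.8 in siNT, all differences called (-0.49 to -0.31).

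Hif1a, the oxygen-regulated subunit itself, was the 1 member that rose in every knockdown. It was at 37.4 and 33.6 FPKM in siRpl11, 37.9 and 34.6 in siRpl14, 36.1 and 33.5 in siRpl18 and 38.5 and 34.4 in siRpl23, against 24.2 and 22.0 in siNT. The third libraries held 37.0, 39.9, 36.2 and 37.4 FPKM in the 4 knockdowns, against 26.4 in siNT. All 12 knockdown libraries were above the siNT libraries of their table, by 0.60 ± 0.08 in siRpl11, 0.63 ± 0.08 in siRpl14, 0.57 ± 0.08 in siRpl18 and 0.63 ± 0.08 in siRpl23. Egln3 and Egln1 encode prolyl hydroxylases that mark the protein for degradation and that HIF itself induces, and both were lower. Egln3 was at 11.8 and 12.04 FPKM in siRpl11, 14.6 and 15.7 in siRpl14, 12.03 and 13.6 in siRpl18 and 10.7 and 12.9 in siRpl23, against 34.3 and 30.9 in siNT (-1.38 ± 0.09 in siRpl11, -1.06 ± 0.09 in siRpl14, -1.28 ± 0.09 in siRpl18 and -1.40 ± 0.09 in siRpl23). Egln1, the main oxygen sensor, was at 4.11 and 4.61 FPKM in siRpl11, 8.23 and 8.04 in siRpl14, 6.98 and 6.72 in siRpl18 and 6.08 and 6.92 in siRpl23, against 15.1 and 13.8 in siNT, with its lowest levels in siRpl11 (-1.53 ± 0.08 in siRpl11, -0.76 ± 0.08 in siRpl14, -0.98 ± 0.08 in siRpl18 and -1.04 ± 0.08 in siRpl23). Egln2, a prolyl hydroxylase gene outside the member list, was at 26.5 and 25.0 FPKM in siRpl11, 27.1 and 25.9 in siRpl14, 29.5 and 30.2 in siRpl18 and 29.4 and 29.7 in siRpl23, against 25.9 and 26.3 in siNT, not called in siRpl11 or siRpl14 and called higher in siRpl18 (0.19 ± 0.05) and siRpl23 (0.17 ± 0.05).

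Among the 12 other hypoxia-inducible genes, 11 were tested, and 9 fell in siRpl11, siRpl14 and siRpl18 and 10 in siRpl23. The shares of all tested genes that fell were 43.6%, 29.5%, 34.7% and 30.8% in siRpl11, siRpl14, siRpl18 and siRpl23. Vegfa, the angiogenic growth factor, had the lowest log2 difference of the 38 members in each knockdown. It was at 4.25 and 4.67 FPKM in siRpl11, 6.65 and 7.25 in siRpl14, 6.91 and 8.09 in siRpl18 and 5.19 and 6.44 in siRpl23, against 29.8 and 27.1 in siNT. In the third libraries it was at 3.75, 4.78, 5.35 and 4.70 FPKM in the 4 knockdowns, against 20.01 in siNT. Mean FPKM was 15.7% of siNT in siRpl11, 24.4% in siRpl14, 26.4% in siRpl18 and 20.4% in siRpl23, and log2 differences were -2.43 ± 0.10 in siRpl11, -1.89 ± 0.10 in siRpl14, -1.79 ± 0.10 in siRpl18 and -2.12 ± 0.10 in siRpl23.

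Bnip3, a mitophagy receptor of the outer mitochondrial membrane, was at 51.2 and 58.8 FPKM in siRpl11, 65.4 and 72.8 in siRpl14, 56.8 and 67.3 in siRpl18 and 49.5 and 64.4 in siRpl23, against 170.2 and 164 in siNT. Knockdown and siNT libraries were far apart (-1.59 ± 0.12 in siRpl11, -1.26 ± 0.12 in siRpl14, -1.42 ± 0.12 in siRpl18 and -1.55 ± 0.12 in siRpl23). Its relative Bnip3l fell less (-0.41 to -0.31). Ndrg1, a stress-responsive gene induced by hypoxia, was at 6.92 and 7.88 FPKM in siRpl11, 9.72 and 10.8 in siRpl14, 8.39 and 9.42 in siRpl18 and 7.17 and 8.43 in siRpl23, against 23.3 and 20.4 in siNT (-1.44 ± 0.10 in siRpl11, -1.02 ± 0.10 in siRpl14, -1.20 ± 0.10 in siRpl18 and -1.38 ± 0.10 in siRpl23). Ero1l, an oxidase of disulfide formation in the endoplasmic reticulum, had differences of -1.38 ± 0.05 in siRpl11, -0.86 ± 0.05 in siRpl14, -0.99 ± 0.05 in siRpl18 and -1.13 ± 0.05 in siRpl23.

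P4ha1 and P4ha2 encode catalytic subunits of collagen prolyl hydroxylase. P4ha1 fell in each knockdown (-0.89 to -0.66). P4ha2 fell by 1.12 ± 0.06 in siRpl11, whereas siRpl23 was at -0.19 ± 0.06 (called) and siRpl14 (-0.15 ± 0.06) and siRpl18 (-0.06 ± 0.06) were not called. In the third libraries P4ha2 was at 5.70, 9.69, 8.67 and 8.89 FPKM in the 4 knockdowns, against 14.7 in siNT, differences of -1.22, -0.55, -0.69 and -0.66 in the same order. Ankrd37, an ankyrin repeat gene induced by HIF, fell in each (-0.73 to -0.41), as did Higd1a, a mitochondrial inner membrane protein (-0.48 to -0.30). Adm was called in siRpl14 (-0.52 ± 0.15), siRpl18 (-0.39 ± 0.15) and siRpl23 (-0.57 ± 0.15), not in siRpl11 (-0.30 ± 0.15). It reached 1 FPKM in only 4 of the 10 libraries, both siNT libraries among them. Its place among the tested genes thus leaned on the group where it was high, and its calls are among the falls counted above. Kdm3a, a histone H3K9 demethylase, was called higher in siRpl11 (0.28 ± 0.05) and not called in the other 3 (-0.07 ± 0.05, -0.11 ± 0.05 and -0.04 ± 0.05); in the third libraries all 4 were below siNT (-0.05, -0.43, -0.44 and -0.45).

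**Figure D3:**
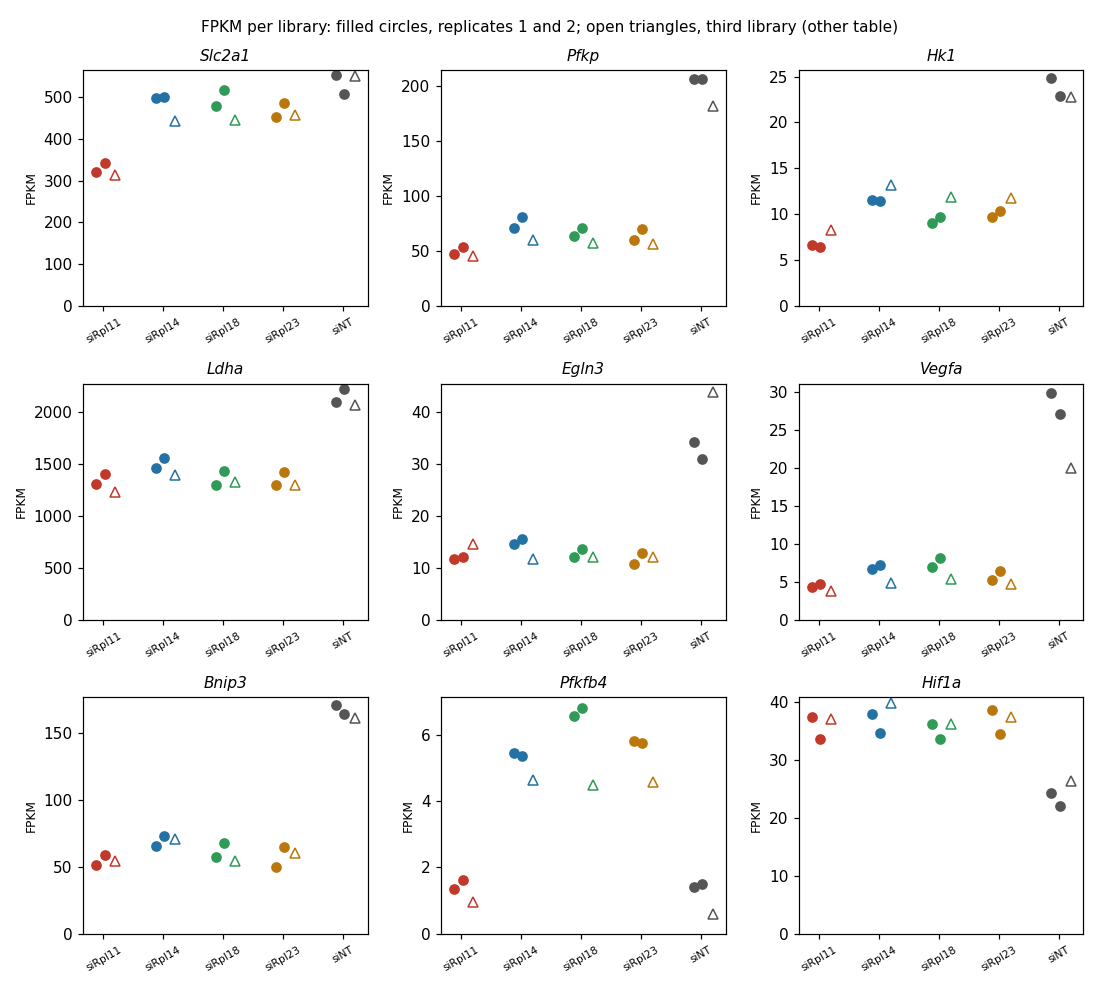
FPKM (linear axis from 0) of 9 members in siRpl11, siRpl14, siRpl18, siRpl23 and siNT; filled circles, replicates 1 and 2; open triangles, the third library of a separately normalized table. Vegfa, Bnip3, Pfkp, Hk1, Egln3 and Ldha are lower in every knockdown library, Slc2a1 is lowest in siRpl11, Pfkfb4 is high in siRpl14, siRpl18 and siRpl23, and Hif1a is above siNT throughout.

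The third libraries showed the same direction for most members. Relative to the third siNT library, 36 of 38 members were lower in each knockdown, where 57.8% of all tested genes were lower in siRpl11, 45.7% in siRpl14, 51.6% in siRpl18 and 49.3% in siRpl23. Members' medians were -0.80, -0.57, -0.64 and -0.68. The 2 members above siNT were Hif1a and Pfkfb4 in every knockdown. Sizes differed more than signs. In siRpl11, siRpl14, siRpl18 and siRpl23, 27, 25, 28 and 25 members kept their sign but differed from the main estimate by 1 SE or more. Across both tables, 34, 35, 34 and 35 of 38 members had every knockdown library below every siNT library of its table, against 45.4%, 31.9%, 37.2% and 33.4% of all genes. With 1 library per group the second table gives no test.

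**Figure D4:**
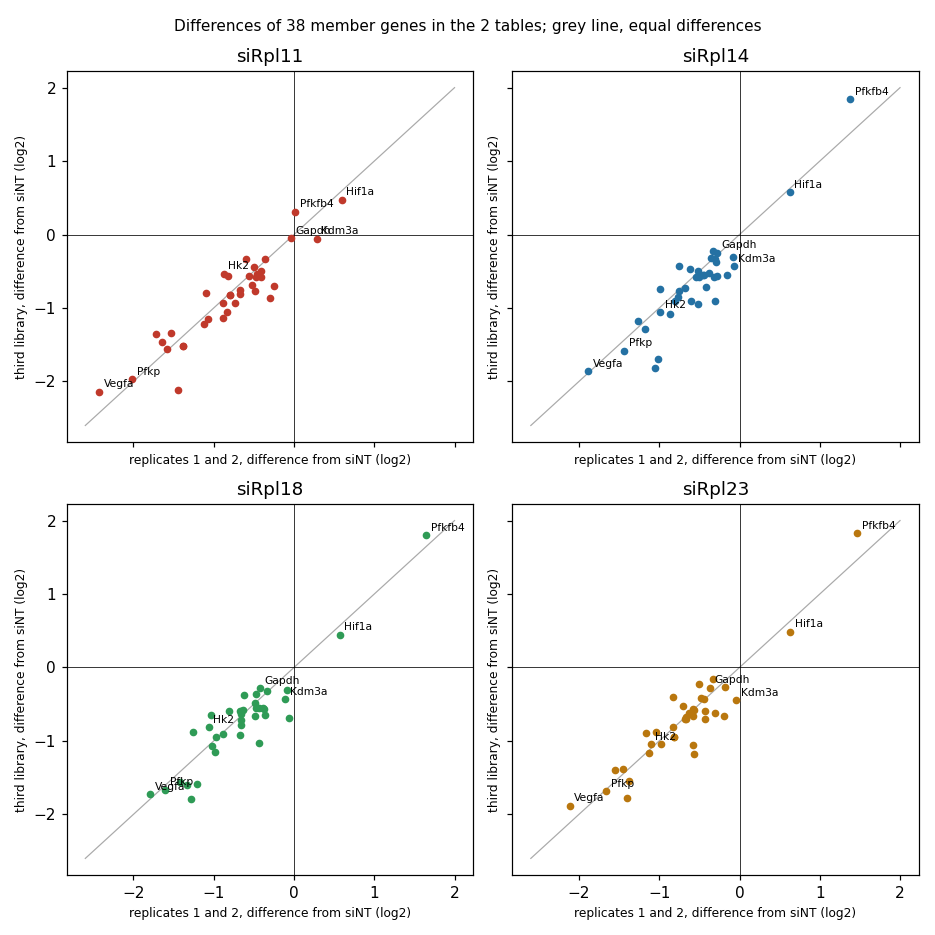
Difference of 38 members from siNT (log2) in the third library (vertical axis) against that in replicates 1 and 2 (horizontal axis), 1 panel per knockdown, with a line of equal differences. Most genes fall in the lower left, many of them off the line by 1 SE or more. Hif1a and Pfkfb4 lie above 0 on the vertical axis in each panel.

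Estimates of differences between knockdowns use no siNT library, although they use the same knockdown libraries. Their SE, p-values and calls draw on a spread shared by all 10 libraries, siNT included. In siRpl11 against the mean of siRpl14, siRpl18 and siRpl23, 5 of 38 members were higher and 17 lower (limma, adjusted p under 0.05). Of all tested genes, 18.4% were higher and 44.2% lower. On the deposited scale the members' share was thus close to the background, as was the median (-0.14, against -0.12 over all genes). A moderated F test over the 4 knockdowns called 23 of 38 members, against 60.8% of all genes. Scaling bears on these figures. After quantile normalization the members' median was -0.11, against 0.05 over all genes, so the members then lay below the background. After median-ratio scaling both medians were 0.007. Median-ratio scaling shifted the all-gene median by 0.12 and gave 10 members higher and 10 lower, and quantile normalization moved the all-gene median by 0.17.

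Several members differed by more than this shift. Pfkfb4 was lower in siRpl11, with a difference of -1.48 ± 0.06, adjusted p = 3.08e-08 (in the third libraries -1.51), P4ha2 -0.98 ± 0.05, adjusted p = 1.12e-07 (-0.59), Egln1 -0.60 ± 0.06, adjusted p = 1.77e-05 (-0.47) and Hk1 -0.58 ± 0.05, adjusted p = 5.12e-06 (-0.51). Slc2a1 (-0.56 ± 0.05, adjusted p = 5.73e-06), Vegfa (-0.50 ± 0.08, adjusted p = 0.000466), Pfkp (-0.45 ± 0.07, adjusted p = 0.000401), Pdk1 (-0.45 ± 0.05, adjusted p = 3.77e-05) and Ero1l (-0.39 ± 0.04, adjusted p = 3.47e-05) were also lower in siRpl11. The 5 that were higher in siRpl11 were Kdm3a (0.35 ± 0.04, adjusted p = 2.82e-05), Gapdh (0.32 ± 0.06, adjusted p = 0.000884), Pfkfb3 (0.19 ± 0.06, adjusted p = 0.0213), Hk2 (0.18 ± 0.04, adjusted p = 0.00395) and Slc16a3 (0.17 ± 0.05, adjusted p = 0.019). Hif1a was -0.01 ± 0.06, adjusted p = 0.864 and Ldha -0.06 ± 0.06, adjusted p = 0.437, neither called. The other 8 called lower were Slc2a3, Gpi1, Pfkm, Aldoa, Aldoc, Ldhb, Ankrd37 and Ndrg1, at -0.12 to -0.33. Of all 17 called lower, 10 were also called lower with median-ratio scaling, where Slc2a3 (-0.12, no larger than the shift) turned to 0.026 and Gpi1, Aldoa, Aldoc, Ldhb, Ankrd37 and Ndrg1 were no longer called lower, and 13 with quantile normalization, where Pfkm, Aldoc, Ankrd37 and Ndrg1 were not. The 5 called higher were called so under both scalings. Besides Hif1a and Ldha, those not called were Pfkl, Tpi1, Pgk1, Pgam1, Eno1, Eno3, Pkm, Pdk3, Egln3, Bnip3, Bnip3l, P4ha1, Adm and Higd1a, at -0.18 to 0.19.

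Markers of trophectoderm moved with the same split. The summed level of 8 such markers was 28.0 to 32.0 FPKM in siRpl11, against 85.9 to 102.8 in siRpl14, 62.8 to 68.2 in siRpl18, 86.7 to 99.6 in siRpl23 and 30.2 to 31.9 in siNT; all 7 that were tested were lower in siRpl11 than in the mean of the other 3, and Cdx2 was at 0.17 and 0.15 FPKM in siRpl11. Their part in the differences of members was not tested.

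**Figure D5:**
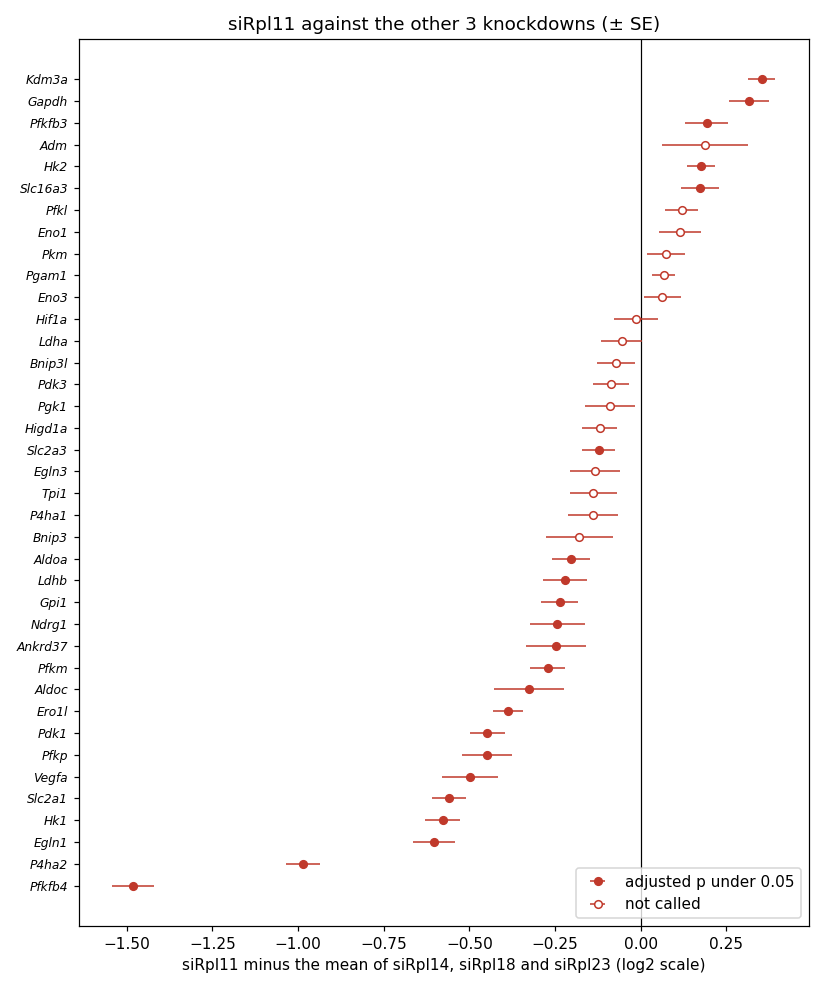
siRpl11 minus the mean of siRpl14, siRpl18 and siRpl23 for 38 members (log2 scale; points, estimate; bars, SE; filled, adjusted p under 0.05). Pfkfb4 is lowest at -1.48 and Kdm3a highest at 0.35.

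Few members were called among the other 3 knockdowns. Over 3 pairs, siRpl18 against siRpl14 called 4 of 38 members, against 14.3% of all genes: Pfkfb4 was higher in siRpl18 (0.27 ± 0.07, adjusted p = 0.0418; in the third libraries -0.04), and Ldhb (-0.28 ± 0.08, adjusted p = 0.0395), Hk1 (-0.26 ± 0.06, adjusted p = 0.021) and Pfkl (-0.21 ± 0.06, adjusted p = 0.0417) were lower. Each of these calls ended when 1 of several libraries was left out. The median of members in siRpl18 against siRpl14 was -0.13, against -0.03 over all genes. Of the 38, 16 were lower in every siRpl18 library of their table, against 3456 of 12249 tested genes. In siRpl18 against siRpl23 limma called 0 of 38 members (3.51% of all genes), with 5 at an unadjusted p under 0.05 (13.2%, against 20.5% of all genes), and the 95% intervals of single members lay within -0.38 and 0.55. In siRpl23 against siRpl14 it called 0 of 38 (0.514% of all genes), with 15 at an unadjusted p under 0.05 (39.5%, against 14.4% of all genes) and intervals within -0.58 and 0.30. The members' median in this pair was -0.14, against 0.00 over all genes, and 20 of 38 were lower in every siRpl23 library of their table, against 15.2% of all genes. These intervals leave room for differences of that size in single genes.

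Genes of the same pathways that are not members were set beside them from lists also drawn up with earlier results known; values in parentheses are log2 differences from siNT in siRpl11, siRpl14, siRpl18 and siRpl23. Of 16 further tested genes of glycolysis, glucose release and glycogen entry, 12, 7, 10 and 8 fell and 0, 4, 2 and 5 rose, where 43.6%, 29.5%, 34.7% and 30.8% of all tested genes fell and 27.3%, 33.3%, 32.8% and 34.9% rose. The same shares are the background of the next 3 lists. The 4 with the largest mean difference were Pck2 (-1.95, -1.65, -1.89 and -1.77), the mitochondrial phosphoenolpyruvate carboxykinase, Pgm2 (-1.98, -1.21, -1.51 and -1.48) and Pgm1 (-1.05, -0.66, -0.84 and -0.81), phosphoglucomutases, and Eno2 (-1.29, -0.56, -0.76 and -0.65), the neuronal enolase. Pck2 was at 2.95 and 3.21 FPKM in siRpl11, 3.81 and 4.26 in siRpl14, 3.08 and 3.46 in siRpl18 and 3.39 and 3.88 in siRpl23, against 14.8 and 14.8 in siNT. Of 12 genes of pyruvate entry into mitochondria and of pyruvate use there, 8, 5, 9 and 6 fell and 1 rose in each. The riser was Pcx, pyruvate carboxylase, at 20.3 and 21.3 FPKM in siRpl11, 28.5 and 28.9 in siRpl14, 28.3 and 28.8 in siRpl18 and 27.9 and 29.3 in siRpl23, against 14.6 and 14.3 in siNT (0.50 ± 0.05 in siRpl11, 0.94 ± 0.05 in siRpl14, 0.94 ± 0.05 in siRpl18 and 0.94 ± 0.05 in siRpl23). Pdp2 (-0.99, -0.79, -0.92 and -0.87), a pyruvate dehydrogenase phosphatase, fell. Pdk2 (-0.78, -0.50, -0.53 and -0.62) and Pdk4 (-0.92, -0.49, -0.25 and -0.29) were also called lower, but at levels of 0.75 to 3.16 FPKM, and in the third libraries Pdk2 was higher than siNT in all 4 knockdowns and Pdk4 in 3.

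Of 14 other genes of the HIF machinery, 2, 6, 5 and 5 fell (14.3%, 42.9%, 35.7% and 35.7%) and 7, 5, 5 and 6 rose, where the shares that rose in siRpl14 and siRpl18 (35.7% each) were near the background, with medians of 0.20, 0.03, 0.10 and 0.07. The HIF coactivators Crebbp (0.72, 0.56, 0.69 and 0.70) and Ep300 (0.63, 0.41, 0.46 and 0.50) rose in each knockdown, and Hif3a (-0.58, -0.40, -0.81 and -0.61), an inhibitory alpha subunit at 0.75 to 2.53 FPKM, fell in each. Eloc (0.70, 0.30, 0.33 and 0.35), a partner of VHL, was called in siRpl11 and siRpl23, while its differences in the third libraries were -0.08 to 0.04. Of 29 further hypoxia-inducible genes tested, 17, 16, 17 and 17 fell (58.6%, 55.2%, 58.6% and 58.6%) and 5, 10, 9 and 9 rose (17.2%, 34.5%, 31.0% and 31.0%, near the background in siRpl14, siRpl18 and siRpl23), with medians of -0.42, -0.27, -0.44 and -0.35. Bhlhe40, a transcriptional repressor, was at 9.57 and 9.996 FPKM in siRpl11, 18.7 and 18.2 in siRpl14, 15.8 and 16.4 in siRpl18 and 16.7 and 17.0 in siRpl23, against 44.7 and 35.0 in siNT. Loxl2 (-1.12, -1.10, -1.43 and -1.53), a lysyl oxidase, and Cox4i2 (-1.60, -1.09, -1.09 and -1.27), the hypoxic isoform of a cytochrome oxidase subunit, also fell in each. Ddit4 (REDD1), an inhibitor of mTORC1 signalling that other stresses also induce, rose in each, at 135 and 137 FPKM in siRpl11, 312 and 296 in siRpl14, 314 and 331 in siRpl18 and 325 and 317 in siRpl23, against 109 and 99.9 in siNT (0.38 ± 0.05 in siRpl11, 1.53 ± 0.05 in siRpl14, 1.62 ± 0.05 in siRpl18 and 1.61 ± 0.05 in siRpl23). Like Pfkfb4, it was lower in siRpl11 than in the mean of the other 3 knockdowns (-1.21 ± 0.04, adjusted p = 1.13e-08).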

How the data were processed

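RNA was profiled in 15 libraries of E14 cells, 3 in each of 5 groups taken from the sample titles. The authors deposited FPKM for each gene. Per the submitters' processing notes the tools were STAR and Cuffnorm and the genome build mm9. Their versions, settings and annotation were not given in the sources used here, and scaling by Cuffnorm could have removed a change common to most genes. The 2 tables of 24819 genes were normalized separately and were never mixed in a main test. In the first, 2 columns match no sample of the series and were not used. Relative depth came from the step that 1 read makes in values of 0.005 to 0.15 FPKM.

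The filter kept 12249 genes with 1 FPKM or more in 2 of the 10 libraries of the first table. Log2(FPKM + 1) values, a scale that understates changes of low genes, entered limma (version 3.58.1; R 4.3.3), with lmFit, contrasts.fit and trended eBayes (1 term per group, 5 residual degrees of freedom) and adjusted by the Benjamini-Hochberg method over all genes tested. The script was tested on simulated data. Members and gene lists were chosen with earlier results of these data known, so adjusted p-values are given only for differences between knockdowns. Every member is named; per-library values are given for 10 preset members and for the 3 with the largest mean difference per class, and up to 4 genes of each other list are named by the same measure. Per-library values of Adm, Gapdh and P4ha2 were added after they were seen. Egln2 was also named with its values outside these rules, and values of Kdm3a are given as a flagged result. Promoter sequences are RefSeq's (GRCm38.p6), a build other than the files' mm9. Alternatives were another pseudocount (0.1), no filter, quantile and median-ratio scaling, a replicate block, fits of only the groups compared, of all 15 libraries, and without each library.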

Additional observations from a re-analysis of the deposited data

Results flagged for a closer look

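Kdm3a, a histone H3K9 demethylase gene induced by hypoxia, was picked out because its difference from siNT in siRpl11 had the opposite sign to that in the other 3 knockdowns, with the difference between them itself tested. It was at 75.8 and 75.3 FPKM in siRpl11, against 57.5 and 60.4 in siRpl14, 56.2 and 58.8 in siRpl18, and 60.5 and 59.98 in siRpl23, with 59.5 and 64.5 in siNT. The difference between siRpl11 and the mean of the other 3 knockdowns was 0.35 (± 0.04, log2; limma, adjusted p = 2.82e-05), and 0.38 in the third libraries. Relative to siNT, siRpl11 was called higher in the first table (0.28), whereas in the second it was at -0.05, so the sign against siNT differed between the tables while that against the other knockdowns did not.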

How the results depend on the processing

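The members' counts against siNT kept within 32 to 36 lower and 2 to 3 higher under each alternative, leaving out each library included. Counts of members between knockdowns moved more. For siRpl11 against the mean of the other 3 (5 higher, 17 lower), median-ratio scaling gave 10 and 10, the replicate block gave 9 higher and 23 lower, and leaving out 1 library gave 3 to 6 higher and 10 to 20 lower, the lowest counts without siRpl11 replicate 2 (3 higher) and without siRpl11 replicate 1 (10 lower). For siRpl18 against siRpl14 (1 higher, 3 lower), pseudocount 0.1, no filter, only the groups compared and all 15 libraries each gave 0 higher, while the number lower was 1 with no filter, 8 with quantile normalization, 1 with median-ratio scaling, 13 with the replicate block and 0 with only the groups compared; leaving out 1 library gave 0 to 1 higher and 0 to 3 lower. The replicate block gave 2 lower in siRpl18 against siRpl23 and 5 lower in siRpl23 against siRpl14, both 0 without it. The labels give replicate numbers 1 and 2 but no pairing, and the deviations of same-numbered libraries correlated with r of -0.086 to 0.195 over 10 pairs of groups. Replicate 1 was nonetheless higher in all 5 groups for 1448 of 12249 genes and replicate 2 for 1049. Of the 38 members, replicate 1 was higher in all 5 groups for 1, Hif1a. Replicate 2 was so for 13, Ldha and Pgk1 among them, and for the summed level of glycolytic enzymes. Whether the numbers mark a shared source was not tested, and calls gained under the block rest on that pairing. Among results called in either setting, reversed signs were Kdm3a in siRpl11 against siNT in the third libraries (-0.054), Pfkfb4 in siRpl18 against siRpl14 in the third libraries (-0.041), and, in siRpl11 against the mean of the other 3, Slc2a3 with median-ratio scaling (0.026) and Eno1 (-0.13) and Pkm (-0.13) with quantile normalization. In the third libraries 3, 10, 16 and 10 members that were not called also had the other sign in siRpl11 against the other 3, siRpl18 against siRpl14, siRpl18 against siRpl23 and siRpl23 against siRpl14. In siRpl11 against the other 3, quantile normalization moved the count of all genes from 2251 to 4267 higher and from 5419 to 3242 lower, and in siRpl11 against siNT median-ratio scaling gave 4451 higher where 3342 were called. Between siRpl18 and siRpl14, all-gene counts ran over 279 to 1066 higher (main 730) and 309 to 1545 lower (main 1017); between siRpl18 and siRpl23 over 23 to 316 (131) and 37 to 670 (299); between siRpl23 and siRpl14 over 1 to 178 (51) and 1 to 62 (12). The cause was not tested. With 2 libraries per group and no total counts, differences within the intervals given could not be resolved.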

Other observations

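Other routes of glucose carbon were lower in part. Of 7 tested genes of the pentose phosphate pathway, which makes NADPH and ribose, 7, 6, 7 and 5 fell in siRpl11, siRpl14, siRpl18 and siRpl23, with none rising, where 43.6%, 29.5%, 34.7% and 30.8% of all tested genes fell. Medians were -0.54, -0.22, -0.28 and -0.26. Tkt, the transketolase of the non-oxidative branch, was at 114 and 116 FPKM in siRpl11, 112 and 111 in siRpl14, 96.0 and 100.0 in siRpl18 and 106 and 111 in siRpl23, against 183 and 175 in siNT, with differences of -0.63 ± 0.04 in siRpl11, -0.68 ± 0.04 in siRpl14, -0.86 ± 0.04 in siRpl18 and -0.71 ± 0.04 in siRpl23. Pgd, the second dehydrogenase of the oxidative branch, differed by -0.70 ± 0.04 in siRpl11, -0.21 ± 0.04 in siRpl14, -0.51 ± 0.04 in siRpl18 and -0.31 ± 0.04 in siRpl23. Pgls, the lactonase between the dehydrogenases, was called lower in each (-0.83 to -0.22), but its differences in the third libraries were -0.43, 0.24, 0.08 and -0.05. Taldo1, transaldolase, was called lower in each (-0.39 to -0.23).

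Of 16 genes of the tricarboxylic acid cycle, 11, 8, 8 and 8 fell and 1, 0, 0 and 0 rose. Among all tested genes, 43.6%, 29.5%, 34.7% and 30.8% fell and 27.3%, 33.3%, 32.8% and 34.9% rose. Medians of the 16 genes were -0.23, -0.18, -0.15 and -0.14, smaller than those of the glycolytic enzymes. Idh3a, a catalytic subunit of isocitrate dehydrogenase, had differences of -0.76 ± 0.05 in siRpl11, -0.47 ± 0.05 in siRpl14, -0.65 ± 0.05 in siRpl18 and -0.52 ± 0.05 in siRpl23. Suclg2 (-0.14, -0.56, -0.63 and -0.54), Sucla2 (-0.38, -0.24, -0.39 and -0.25) and Sdhc (-0.35, -0.31, -0.30 and -0.39), subunits of succinyl-CoA ligase and succinate dehydrogenase, were called lower in each. Suclg2 was higher in siRpl11 than in the mean of the other 3 knockdowns (0.44 ± 0.04, adjusted p = 8.17e-06).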
